A study of Mus musculus with 9 samples.

Results

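The 9 genes described here encode scaffold proteins of the cardiac sarcomere, and they were chosen by name: Ttn, Actn2, Ldb3, Tcap and Myoz2 of the Z-disc region, Myom1 and Myom2 of the M-band, Mybpc3 of the thick filament and Tpm1 of the thin filament. Each was read at the probe set with a single gene symbol and the highest mean over all arrays, and each of the 9 had 1 such probe set. They are 9 of the 19935 genes that the annotation names with 1 symbol, in a table of 28815 probe sets. RNA from the interventricular septum and right ventricle of adult mice was hybridised to Affymetrix arrays, 1 for each of 9 hearts; the strain is given as a mixed background of C57BL/6. The 4 Ezh2-deficient hearts carried Ezh2f/f;Mef2cAHF::Cre, that is, floxed Ezh2 alleles with a Cre recombinase under the anterior heart field enhancer of Mef2c, and the 5 wild-type hearts carried Ezh2f/f without Cre. Both groups thus have floxed alleles by the genotype field, but titles in the wild-type group read f/wt, and the labels do not settle which holds. Ezh2 encodes the histone H3 lysine 27 methyltransferase of Polycomb repressive complex 2. The enhancer acts in embryonic progenitors, and the tissue also holds cells outside that lineage. The presence of Cre cannot be told apart from loss of Ezh2, and neither age in weeks nor sex is given in the labels.

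The sarcomere is the contractile unit of striated muscle, bounded by Z-discs that anchor actin thin filaments and centred on the M-band that crosslinks myosin thick filaments. Titin, the product of Ttn, spans from Z-disc to M-band and acts as a molecular spring and template. Changes in the abundance of such scaffold proteins, or in their isoforms, accompany remodelling of the heart, and variants in many of their genes cause cardiomyopathy in humans.

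Values are log2 expression, 1 per probe set and array, as deposited. The array medians lay between 7.19 and 7.25. Ezh2-deficient array 3 stood away from the rest on the second principal component (24.0% of the variance, -30.2 against -8.6 to 14.4), and wild-type arrays 4 and 5 on the first (30.7% of the variance, 26.1 and 24.1 against -13.9 to 3.8). Erythrocyte markers were also high in Ezh2-deficient array 3: over Alas2, Slc4a1 and Bpgm, the 3 of 8 listed markers that were measured, the mean was 10.08 there, at most 8.43 in the other Ezh2-deficient arrays and 7.86 to 8.76 in wild-type arrays. The Ezh2 probe set itself read 8.88 ± 0.11 (SD, n = 4) in Ezh2-deficient and 8.73 ± 0.12 (SD, n = 5) in wild-type hearts (limma adjusted p = 0.485), so it gives no check of the labels, and where its probes lie is not stated. Each sample title also has a letter, e or x, whose meaning is not stated: 2 Ezh2-deficient and 2 wild-type arrays have e, and 2 and 3 have x. Some titles of letter x also have a prime, again without a stated meaning. Only Ezh2-deficient array 3 and wild-type array 4 have x without a prime. These were also the lowest arrays on the second principal component (-30.2 and -8.6). The heart muscle genes Myh6, Actc1 and Tnnt2, which mark the labelled tissue, averaged 13.95, 14.39 and 13.95 in Ezh2-deficient hearts and 14.03, 14.37 and 14.04 in wild-type hearts. The labels speak of separate mice, so each array was taken as 1 animal. The mean of 3 Y-linked genes was low in Ezh2-deficient arrays 1 and 3 (4.84 and 5.505) and in wild-type array 4 (5.47). In the other arrays it was 8.64 to 9.38. By these genes the sexes were not evenly spread over the groups.

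No scaffold gene passed the test between Ezh2-deficient and wild-type hearts. By limma 0 of the 9 had an adjusted p under 0.05, where 0.0347% of all probe sets did, and the smallest adjusted p was 0.603, for Tcap. None had an unadjusted p under 0.05, where 10.7% of all probe sets did, and at none did the groups separate without overlap, as they did at 3.71% of all probe sets. The mean was lower in Ezh2-deficient hearts for 8 genes and higher for Tpm1, with a median difference of -0.04 on the log2 scale beside -0.006 over all probe sets. Without Ezh2-deficient array 3 the mean was lower for 2 genes, Tcap and Myoz2, and higher for 7, and the median difference was 0.02. A p over the threshold does not show that the levels were equal, so the interval of each difference is given. For 7 of the 9 the 95% interval of the fold in array values lay between 0.8 and 1.25. In whole tissue, fewer cells of a type and less RNA per cell cannot be told apart.

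The sequences before the transcription starts of scaffold genes are shown because 5 of these genes hold a known binding motif of muscle regulators there. It is not 1 motif: 3 genes have that of MEF2 and the other 2 have the CArG box. MEF2 factors and serum response factor, which binds the CArG box, drive many muscle genes. RefSeq windows of 250 bases before to 50 after a start (GRCm38.p6) were at hand for 7 of the 9 genes, all but Tcap and Myom2. The MEF2 motif stood in those of 3 genes, Ttn, Mybpc3 and Myoz2, and in 3.19% of all 32851 windows. The CArG box stood in those of 2 genes, Ldb3 and Myom1, and in 1.63% of all windows. Both motifs were read on both strands, and each match reads as a motif on either strand. Each stretch lies before the start that its RefSeq window is set on, which need not be the outer end of the gene: those of Myom1 and Ldb3 lie inside the gene span, before internal starts, and those of Mybpc3 and Myoz2 overlap its outer end. The motif is in capitals:
Ttn, chr2:76982649-76982768, minus strand: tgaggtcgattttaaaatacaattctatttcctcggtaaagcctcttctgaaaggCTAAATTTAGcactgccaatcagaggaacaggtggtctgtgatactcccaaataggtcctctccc
Mybpc3, chr2:91117999-91118118, plus strand: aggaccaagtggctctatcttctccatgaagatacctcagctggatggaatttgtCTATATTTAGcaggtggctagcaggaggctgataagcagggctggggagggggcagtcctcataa
Myoz2, chr3:123034988-123035075, minus strand: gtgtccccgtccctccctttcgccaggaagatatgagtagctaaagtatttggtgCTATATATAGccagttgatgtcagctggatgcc
Ldb3, chr14:34588682-34588771, minus strand: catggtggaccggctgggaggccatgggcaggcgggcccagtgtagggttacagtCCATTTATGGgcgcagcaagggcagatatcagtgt
Myom1, chr17:71019403-71019522, plus strand: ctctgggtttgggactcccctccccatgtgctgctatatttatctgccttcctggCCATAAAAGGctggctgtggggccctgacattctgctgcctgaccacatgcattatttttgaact
Counted back from the start, the motif began at position -166 in Ttn, at -90 in Mybpc3, at -33 in Myoz2, at -35 before the Ldb3 start shown and at -99 in Myom1. The E-box CANNTG stood in windows of 6 of the 7 genes and in 72.3% of all windows, GATAA in 3 and 25.4%, CATTCC in 2 and 14.7% and TATAAA in 0 and 13.6%. The count of CG pairs, which mark the islands at many Polycomb targets, was 27 for Tpm1, 19 for Actn2, 8 for Ttn, 6 for the Ldb3 window shown, 4 for Myoz2, 2 for Myom1 and 1 for Mybpc3, beside a median of 7 over all windows. A match describes these letters only, and the arrays give no measure of binding or of chromatin.

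**Figure D1:**
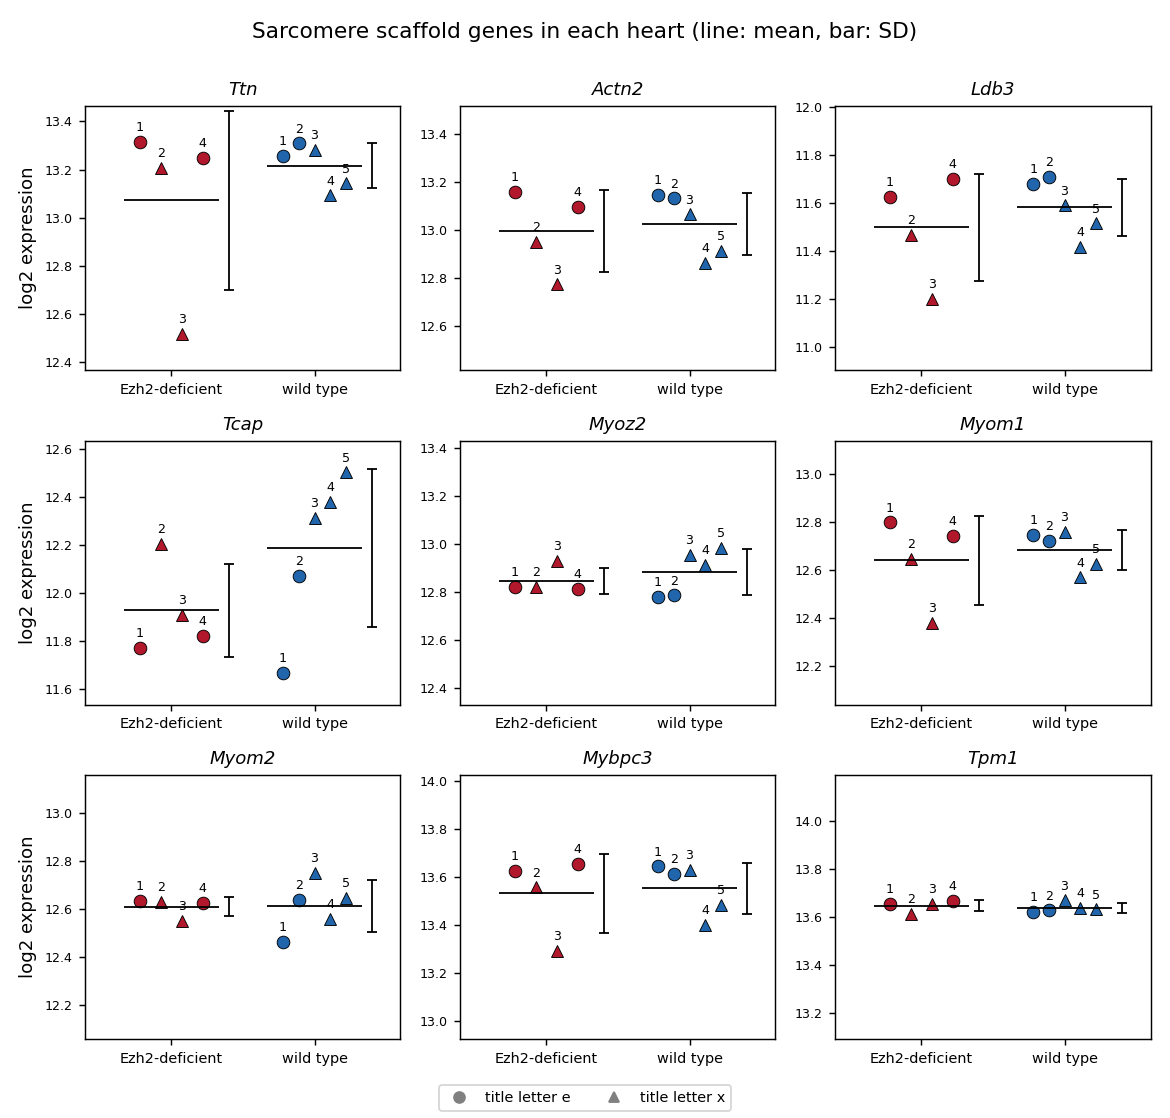
Log2 expression of each scaffold gene (vertical axis, the same height of 1.1 in every panel) in 4 Ezh2-deficient hearts (red) and 5 wild-type hearts (blue); numbers give the array, circles title letter e, triangles title letter x, lines the group mean and bars the SD. The groups overlap for all 9 genes, and Ttn in Ezh2-deficient array 3 reads 12.52.

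Ttn, the gene of the titin scaffold (chr2:76703980-76982557, GRCm38.p6), read 13.31, 13.21, 12.52 and 13.25 in Ezh2-deficient arrays 1 to 4. In wild-type arrays 1 to 5 it read 13.26, 13.31, 13.28, 13.09 and 13.14. The other Ezh2-deficient hearts lay within the wild-type range or just above it, and array 3 lay 0.74 below their mean. The difference was -0.14 (SE 0.15, 95% interval -0.47 to 0.19, limma adjusted p = 0.761), or 0.90-fold. Without Ezh2-deficient array 3 it was 0.04 (SE 0.06, adjusted p = 0.863), so the sign turned without that array. The SD was 0.37 in Ezh2-deficient hearts and 0.09 in wild-type hearts. The table holds 1 value for the gene and does not resolve titin isoforms.

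Among the Z-disc genes, Actn2 encodes the sarcomeric alpha-actinin that crosslinks actin filaments from neighbouring sarcomeres. It read 13.16, 12.95, 12.77 and 13.10 in Ezh2-deficient hearts. The wild-type hearts gave 13.15, 13.13, 13.07, 12.86 and 12.91. Array 3 was again the lowest of the Ezh2-deficient arrays, and the others lay in the wild-type range or, for array 1, just above it. The difference was -0.03 (SE 0.09, 95% interval -0.23 to 0.17, adjusted p = 0.940).

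Ldb3 encodes a PDZ-LIM protein, also called Cypher or ZASP, that binds alpha-actinin at the Z-disc. In Ezh2-deficient arrays 1 to 4 its values were 11.62, 11.47, 11.20 and 11.70. They were 11.68, 11.71, 11.59, 11.42 and 11.51 in wild-type arrays 1 to 5. Only array 3 of the Ezh2-deficient hearts fell outside the wild-type range. The difference was -0.08 (SE 0.10, 95% interval -0.31 to 0.15, adjusted p = 0.808), and 0.02 without that array.

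Tcap encodes telethonin, which caps the amino-terminal end of titin in the Z-disc. Its values were 11.77, 12.21, 11.91 and 11.82 in Ezh2-deficient hearts, against 11.67, 12.07, 12.31, 12.38 and 12.50 in wild-type hearts. All 4 Ezh2-deficient values lay inside the wide wild-type range, below the 3 wild-type arrays of letter x. Of the 9 genes Tcap had the lowest mean relative to wild type, 0.84-fold, with a difference of -0.26 (SE 0.16, 95% interval -0.62 to 0.10, adjusted p = 0.603, exact two-sided permutation p = 0.190 over 126 assignments). Unlike Ttn, it differed by much the same amount without Ezh2-deficient array 3 (-0.25). Its level ran with the title letter: the 3 wild-type arrays of letter x averaged 0.53 above the 2 of letter e, and both Ezh2-deficient arrays of letter x read above both of letter e. The genotypes differed by -0.07 among arrays of letter e and by -0.34 among those of letter x. Neither passed by limma, but among arrays of 1 letter alone 0 of all probe sets passed, so this says nothing about Tcap. Without wild-type arrays 4 and 5, which have letter x, the difference was -0.09. Without wild-type array 1, the lowest of the 9, it was -0.39 (SE 0.12, adjusted p = 0.226).

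Myoz2 encodes calsarcin-1, which links calcineurin to alpha-actinin. It read 12.82, 12.82, 12.93 and 12.82 in Ezh2-deficient arrays 1 to 4. The values were 12.78, 12.79, 12.95, 12.91 and 12.98 in wild-type arrays 1 to 5. Here array 3 was the highest of the Ezh2-deficient hearts, at 12.93, and inside the wild-type range. The difference was -0.04 (SE 0.06, 95% interval -0.16 to 0.09, adjusted p = 0.852), and the wild-type arrays of letter x averaged 0.17 above those of letter e.

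The M-band is held together by myomesins, which bridge myosin filaments and bind titin. Myom1, the myomesin found in all striated muscle, read 12.80, 12.65, 12.38 and 12.74 in Ezh2-deficient hearts and 12.75, 12.72, 12.76, 12.57 and 12.63 in wild-type hearts. Array 3 gave the lowest value of all 9 arrays, and the other 3 Ezh2-deficient hearts reached from 12.65 to 12.80. The difference was -0.04 (SE 0.08, 95% interval -0.23 to 0.14, adjusted p = 0.889). Myom2, which encodes M-protein, a myomesin of fast and adult cardiac muscle, gave 12.63, 12.63, 12.55 and 12.62 in Ezh2-deficient hearts. It gave 12.46, 12.64, 12.75, 12.56 and 12.65 in wild-type hearts. These means differed by -0.0008 (SE 0.06, 95% interval -0.13 to 0.13, adjusted p = 0.998), the smallest difference of the 9.

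Mybpc3 encodes cardiac myosin-binding protein C, which sits on the thick filament and modulates crossbridge cycling. The Ezh2-deficient values were 13.63, 13.56, 13.29 and 13.66, against 13.65, 13.61, 13.63, 13.40 and 13.49 in wild-type hearts. Array 3 was the lowest of all 9, and Ezh2-deficient array 4 was the highest, just above wild-type array 1. The difference was -0.02 (SE 0.08, 95% interval -0.21 to 0.16, adjusted p = 0.954), and 0.06 without array 3.

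Tpm1 encodes alpha-tropomyosin, the coiled coil that lies along actin and gates myosin binding. It read 13.66, 13.61, 13.66 and 13.67 in Ezh2-deficient hearts and 13.62, 13.63, 13.67, 13.64 and 13.63 in wild-type hearts. All 9 values lay within 0.06 of each other, the narrowest range of the scaffold genes, and array 3 did not stand out. The difference was 0.01 (SE 0.04, 95% interval -0.07 to 0.09, adjusted p = 0.949). As a fold of the array values the interval runs between 0.95 and 1.06. The table has no saturation flag, so this bounds the array reading only. The exact permutation p was 0.508 for Tpm1 and lay between 0.190 and 0.992 over the 9 genes.

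**Figure D2:**
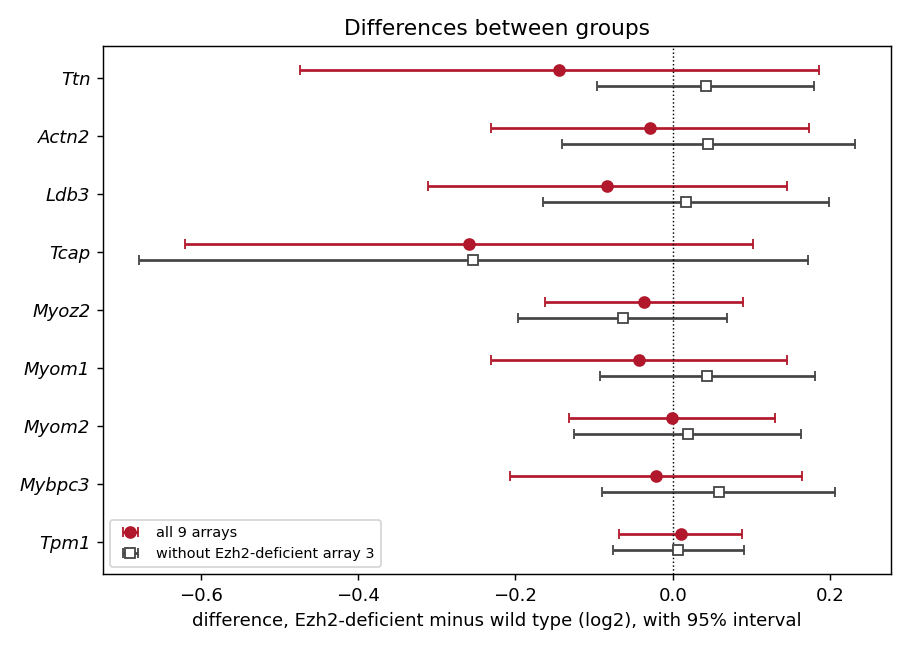
Difference in log2 expression, Ezh2-deficient minus wild type (horizontal axis), for each scaffold gene with its limma 95% interval, over all 9 arrays (red circles) and without Ezh2-deficient array 3 (open squares). Every interval crosses 0; Ttn reads -0.14 with all arrays and 0.04 without array 3.

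For each scaffold gene the range within either group was wider than the difference between the group means. Ttn, Actn2, Ldb3, Myom1 and Mybpc3 went up and down together, a grouping seen in these values and given as a description only. Pearson's r over the 9 arrays was 0.82 to 0.97 for the 10 pairs among these 5 genes, and 0.81 to 0.95 over the 8 arrays that leave out Ezh2-deficient array 3. Tcap and Myoz2 mostly ran the other way. Their r with the 5 genes was -0.50 to 0.007 and -0.67 to -0.44 over the 9 arrays. Over the 8 arrays it was -0.83 to -0.65 and -0.66 to -0.45. The r between Tcap and Myoz2 was 0.72 over the 9 arrays. The values of an array share its sample, genotype and title letter. Each of the 5 genes had its highest value in an array of letter e, and wild-type arrays 4 and 5 were the lowest of the wild-type arrays for all 5. Array 4 lay below array 5 for all 5, and only it and Ezh2-deficient array 3 have letter x without a prime. All 5 had their lowest value of all arrays in Ezh2-deficient array 3. Relative to the mean of the other 3 Ezh2-deficient hearts that array read -0.74 for Ttn, -0.40 for Ldb3, -0.35 for Myom1, -0.32 for Mybpc3 and -0.29 for Actn2. By the same measure Myom2 read -0.08, Tcap -0.02, Tpm1 0.01 and Myoz2 0.11. The printed upstream stretches of Ttn and Mybpc3 (MEF2) and of Ldb3 and Myom1 (CArG box) belong to genes that were lowest in that array. That of Myoz2 (MEF2) belongs to a gene that was not lowest there, and the window of Actn2, which was, held neither motif. A link between the motifs and these values was not tested.

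**Figure D3:**
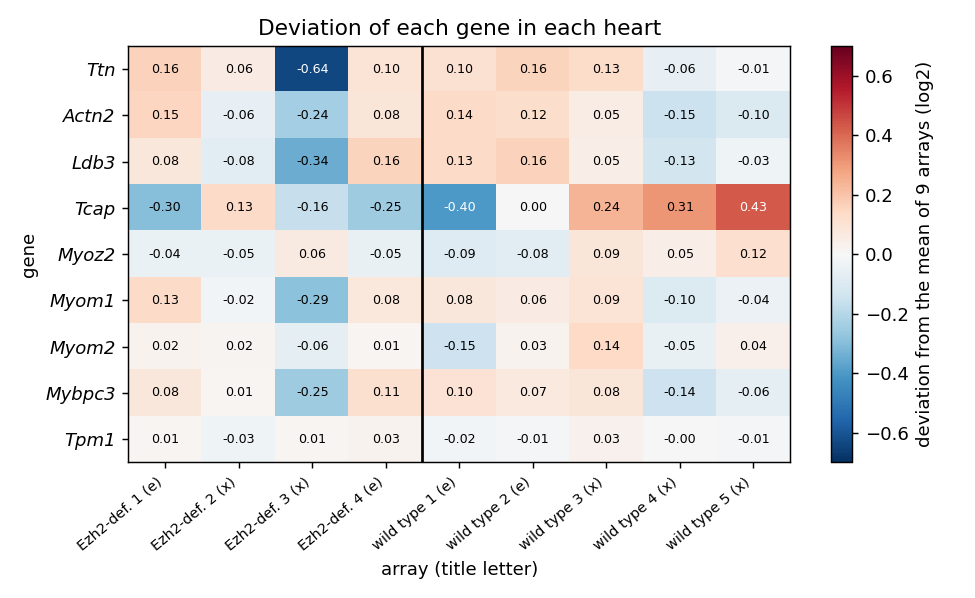
Deviation of each scaffold gene (rows) in each array (columns, title letter in brackets) from its mean over 9 arrays, in log2 units, red above and blue below; Ezh2-deficient arrays stand left of the black line. Ttn in Ezh2-deficient array 3 reads -0.64, and Tcap runs between -0.40 in wild-type array 1 and 0.43 in wild-type array 5.

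Long genes were low in Ezh2-deficient array 3 beyond the sarcomere. Among 1746 genes with a mean above 10, the median deviation of that array from the mean of all arrays was 0.009 in the fifth with the shortest genomic span (up to 7.23 kb). It was -0.05, -0.07 and -0.09 in the next bins and -0.15 in the fifth with the longest span (66.7 kb and more). In the longest bin the other Ezh2-deficient arrays read 0.01, -0.004 and 0.02, and the wild-type arrays -0.005 to 0.04. Wild-type array 4 also fell at each step, with 0.063 in the shortest bin and 0.007 in the longest. Ezh2-deficient arrays 1 and 4 and wild-type arrays 1 and 3 rose at each step. Ttn spans 279 kb, Myom1 124 kb, Myom2 75.8 kb, Actn2 71.3 kb and Ldb3 63.6 kb. Mybpc3 spans 18.4 kb, Myoz2 28.8 kb, Tpm1 27.1 kb and Tcap 1.14 kb. Of the scaffold genes with the longer spans, Ttn, Myom1, Actn2 and Ldb3 had their lowest value in Ezh2-deficient array 3, and Myom2 did not. Of those with the shorter spans, Mybpc3 had its lowest value there, and Myoz2, Tpm1 and Tcap did not. Relative to the mean of the other Ezh2-deficient hearts, that array read -0.74 for Ttn, -0.32 for Mybpc3, -0.08 for Myom2 and -0.02 for Tcap. The span includes introns and is not the length of the messenger RNA, which was not used here. Ezh2-deficient array 3 and wild-type array 4, both x without a prime, both had a low mean of the Y-linked genes (5.505 and 5.47). Ezh2-deficient array 1, of letter e, was low too (4.84). For the low scaffold values of Ezh2-deficient array 3, the part of gene length, blood, RNA quality, sex or the title mark was not tested.

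**Figure D4:**
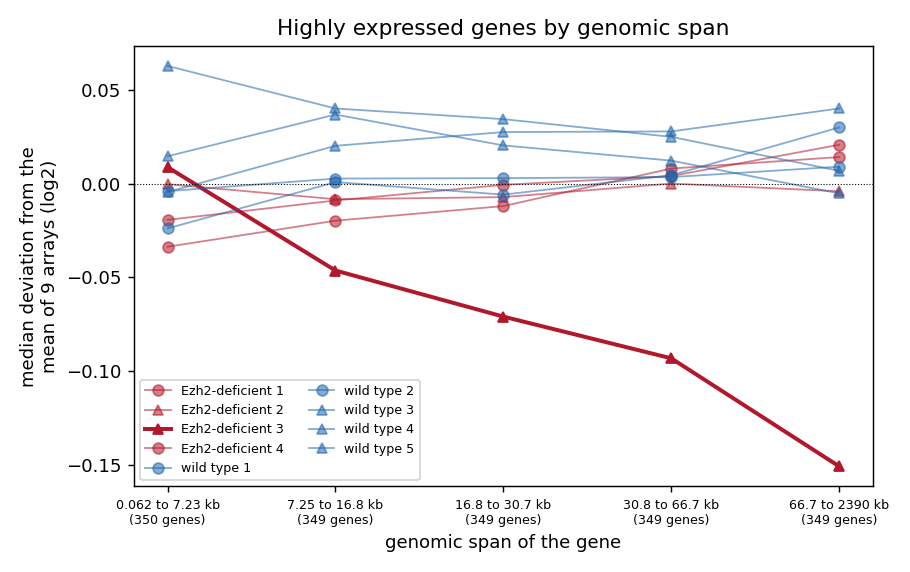
Median deviation from the mean of 9 arrays (vertical axis, log2 units) of 1746 genes with a mean above 10, in 5 bins of genomic span (horizontal axis), 1 line per array, Ezh2-deficient red and wild type blue, triangles title letter x. Ezh2-deficient array 3 (thick line) runs between 0.009 in the shortest bin and -0.15 in the longest.

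Other genes of the sarcomere, and genes that act on splicing, were set beside the scaffold in 5 lists, of which 76 of 81 entries were measured. The splicing list has 7 of the 76, and the Z-disc list also holds the non-muscle genes Actn1 and Actn4. By limma 0 of the 76 passed, 7 had an unadjusted p under 0.05 with a higher mean in Ezh2-deficient hearts and 14 with a lower one, where 5.23% and 5.45% of all probe sets did. Of the 14, 3 are splicing genes. The scaffold genes had 0 in either direction. The median difference of the 76 was -0.03. At 11 of the 76 the groups did not overlap, where this held at 3.71% of all probe sets. These lists and the marker lists below were chosen with earlier results of these data known, so counts beside those shares are a description only. Of the 11, Pdlim7, Pdlim3 and Actn1 were higher in Ezh2-deficient hearts. Nebl, Cmya5, Fhod3, Tnni3, Tnnt2, Rbm20, Rbm24 and Rbfox1 were lower. Nebl and Cmya5, both of the Z-disc list, differed by -0.17 and -0.31 (limma adjusted p = 0.342 and 0.348).

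Of 30 further Z-disc genes 14 had a higher and 16 a lower mean (median -0.01). The PDZ-LIM genes Pdlim7 and Pdlim3, relatives of Ldb3, had means of 9.13 and 9.60 in Ezh2-deficient hearts against 8.77 and 9.01 in wild-type hearts. Pdlim7 differed by 0.36 (SE 0.07) with an adjusted p of 0.128, and Pdlim3 by 0.59 (SE 0.13) with an adjusted p of 0.157. Their groups did not overlap, yet neither passed. Synpo2, an actin-bundling protein of the Z-disc, differed by -0.17 (SE 0.05, adjusted p = 0.308). Of 12 M-band genes 2 had a higher and 10 a lower mean (median -0.06). Fhl1, a LIM protein that binds titin, averaged 10.71 in Ezh2-deficient and 10.05 in wild-type hearts, a difference of 0.67 (SE 0.22, adjusted p = 0.336). The titin-associated ubiquitin ligases Trim63 and Trim55 differed by -0.18 and -0.29 (adjusted p = 0.397 and 0.425).

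In the thick filament list 6 of 13 had a higher mean (median -0.005), and in the thin filament list 8 of 14 (median 0.007). Fhod3, a formin that assembles thin filaments, averaged 10.08 in Ezh2-deficient and 10.47 in wild-type hearts, with no overlap and a difference of -0.40 (SE 0.08, adjusted p = 0.129). Tnni3, cardiac troponin I, differed by -0.17 (adjusted p = 0.239). The fetal-type genes Acta1 and Myh7 differed by 1.23 (adjusted p = 0.170) and 0.83 (adjusted p = 0.301), and Mylk3 and Unc45b, a myosin kinase and a myosin chaperone, by -0.12 and -0.24. Myh7 passed without Ezh2-deficient array 3 (adjusted p = 0.0486, difference 1.15).

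Genes that act on splicing, among them the titin splicing factor Rbm20, had a lower mean in 6 of 7 cases (median -0.10). Rbm20 averaged 10.46 in Ezh2-deficient and 10.75 in wild-type hearts, a difference of -0.29 (SE 0.09, adjusted p = 0.304), and Rbm24, another muscle splicing factor, differed by -0.23 (adjusted p = 0.391). Rbfox1, a splicing factor of heart, muscle and brain, differed by -0.52 (SE 0.07, adjusted p = 0.0501), just outside the threshold, and passed in 4 of 20 alternatives. The groups did not overlap for these 3 genes. Rbm20 in Ezh2-deficient array 3 read 10.13, the lowest of the 9 arrays, as Ttn did, but the other 3 also lay below all wild-type values. Exon inclusion in Ttn was not measured.

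**Figure D5:**
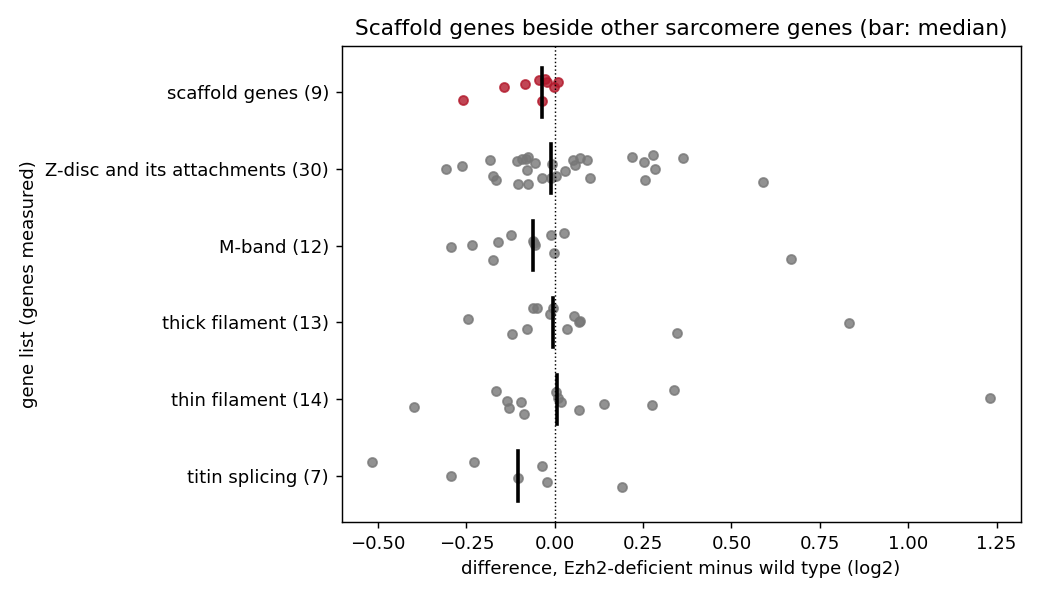
Difference in log2 expression, Ezh2-deficient minus wild type (horizontal axis), of the 9 scaffold genes (red) and the genes of 5 further lists of sarcomere and splicing genes (grey). Each gene is 1 point, with the list median as a bar, and vertical scatter within a row has no meaning. The scaffold genes lie between -0.26 and 0.01, and the further genes between -0.52 (Rbfox1) and 1.23 (Acta1).

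Relatives of the scaffold genes that serve other cells or other muscle were compared by their own differences. For alpha-actinin, the non-muscle genes Actn1 and Actn4 were apart by 0.28 (SE 0.10) and 0.26 (SE 0.13), with adjusted p of 0.342 and 0.523, beside -0.03 for Actn2. For tropomyosin, Tpm2, Tpm3 and Tpm4 differed by 0.14, 0.34 and 0.28 (adjusted p = 0.477, 0.357 and 0.480), beside 0.01 for Tpm1. None of these passed, and the difference between relatives was not tested. The 12 fibroblast markers all had a higher mean in Ezh2-deficient hearts, with list means of 11.15 to 11.41 against 10.42 to 11.06 in wild-type hearts, and 9 had an unadjusted p under 0.05 with a higher mean, as 5.23% of all probe sets did, but 0 of the 12 passed the adjusted threshold. Endothelial markers had a higher mean in 10 of 10 (list means 10.42 to 10.52 against 9.83 to 10.42). The mean was also higher for 7 of 8 smooth muscle and pericyte markers (9.48 to 9.71 against 9.16 to 9.53), 9 of 10 macrophage markers (8.95 to 9.28 against 8.64 to 9.08) and 5 of 6 lymphocyte markers (6.24 to 6.89 against 5.92 to 6.39). The highest lymphocyte value, 6.89, was that of Ezh2-deficient array 3. The part of these cells in the values of Actn1, Actn4 and the tropomyosins was not tested. The cardiomyocyte list had a lower mean in 10 of 12 (list means 13.51 to 13.65 against 13.65 to 13.69), with its lowest value in Ezh2-deficient array 3. Of the other relatives, Myom3 differed by 0.03, Mybpc1 by 0.03, Myoz1 by -0.01 and Myoz3 by 0.05. Mybpc2 and Mybphl had wider errors, with differences of 0.35 (SE 0.26) and 0.07 (SE 0.43). Of the 6 atrial markers, Myl7 lay between 8.07 and 11.63 in Ezh2-deficient hearts and between 6.97 and 11.10 in wild-type hearts. Myl4 lay between 9.16 and 12.11 and between 7.885 and 11.62. Nppa ran otherwise and differed by 0.86 (limma adjusted p = 0.222). It was highest in Ezh2-deficient array 1, where Myl7 was lowest of that group. Sln, Dkk3 and Bmp10 differed by 0.10, 0.44 and -0.33. Hearts of both groups thus differed widely in Myl7 and Myl4, and the part of this in the scaffold values was not tested.

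The genes most like the scaffold were sought among 19925 others by Pearson's r with the mean of the 9 scaffold genes, each centred on its own mean, over the 9 arrays. That mean pools genes that did not all run together, so it need not match any one of them. The 5 with the highest r were Enpp7 (0.983), Atpaf2 (0.981), Mir130b (0.978), Nfx1 (0.973) and Mir300 (0.973). They were picked for r, so r has no test. Enpp7 (6.48 to 6.65 over the 9 arrays), Mir130b (5.94 to 6.57) and Mir300 (4.87 to 5.47) are dim, below the median level of all probe sets, 7.22. Atpaf2 read 8.86 to 9.17 and Nfx1 8.87 to 9.11. Enpp7 had the same value, 6.61, in 4 arrays and Nfx1, 9.041, in 5. Spearman's rho was 0.81 to 0.98. The likeness leaned on the arrays at the ends: without Ezh2-deficient array 3 and wild-type array 3, the farthest from the median, r over 7 arrays was 0.80 for Enpp7, 0.84 for Atpaf2, 0.92 for Mir130b, 0.68 for Nfx1 and 0.74 for Mir300. All 5 had their lowest value in Ezh2-deficient array 3, and none passed between the genotypes.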

How the data were processed

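The deposited table holds log2 values between 2.18 and 15.0, a scale read from the values. The submitters' processing notes name RMA and Affymetrix Power Tools; their versions are not stated in the material used. RMA summarises the probes of a set after background correction and quantile normalization, so arrays share nearly 1 distribution. The table has no detection or saturation flag. The precision is limited by the number of arrays: over all probe sets the standard error had a median of 0.0674.

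Groups came from the description labels, and replicates were numbered in accession order. Gene names follow GEO's platform annotation (21780 with 1 symbol, 1605 with several, 5430 with none), with symbols updated by gene identifier for 21689. Groups were compared with limma 3.58.1 in R 4.3.3 (lmFit, eBayes) on genotype alone, two-sided and Benjamini-Hochberg adjusted over all 28815 probe sets, threshold 0.05; differences are Ezh2-deficient minus wild type. Each scaffold gene also had an exact two-sided permutation test. The fit was tested on simulated data. Scaffold genes and lists were chosen with earlier results of these data known. Named are all scaffold genes, Ezh2, relatives of scaffold genes, markers of the tissue and of other cells, and 5 genes most like the scaffold. Of each further list, up to 3 genes with the smallest p and those whose groups did not overlap are also named. The bins of gene span and the group of 5 genes that varied together were formed after the values were seen. Of the 81 list entries, 76 were analysed and the others are not reported here. Alternatives were array subsets, the title letter as a block, a sex covariate from 3 Y-linked genes, normalization, array weights, an intensity trend and a filter on dim probe sets.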

Additional observations from a re-analysis of the deposited data

Results flagged for a closer look

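In 18 sets of values (9 genes in 2 groups) the highest or lowest heart stood far from the others of its group in 3, where chance alone gives about 1 in 20 sets if sets are independent. All 3 were Ezh2-deficient array 3: Ttn at 12.515, with 0.867 of the group's range lying between it and the next array, Myom2 at 12.549 (0.893) and Myoz2 at 12.929 (0.930). Ttn and Myom2 were low there and Myoz2 was high. The Myom2 and Myoz2 values lay inside the wild-type range, and the Ttn value lay below it. In the same array the erythrocyte markers had the highest mean of the 9 arrays, 10.08. The 18 sets come from the same 9 arrays and are not independent, so the chance rate gives no test of the 3 flagged values.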

How the results depend on the processing

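Over 20 alternatives none of the 9 scaffold genes passed (smallest adjusted p = 0.226), and 25 of the 180 recomputed differences had the opposite sign. Tcap kept a lower mean in Ezh2-deficient hearts throughout (-0.39 to -0.07). Leaving out 1 array at a time gave -0.225 to 0.0415 for Ttn, -0.0831 to 0.0452 for Actn2, -0.0629 to 0.0581 for Mybpc3, -0.0953 to 0.0441 for Myom1, -0.150 to 0.0165 for Ldb3 and -0.0378 to 0.0343 for Myom2; without Ezh2-deficient array 3 the sign turned for all 6 (Myom2 0.0191). Within letter e Mybpc3 (0.012), Myom1 (0.0355), Myom2 (0.08) and Myoz2 (0.036) had a higher mean, and within letter x Tpm1 read -0.0125. With the title letter as a block Myom2 read 0.00291, and 0.0142 with letter and prime. With the Y-linked covariate Mybpc3 read 0.0222 and Myom2 0.0134; with a further quantile normalization Myom2 read 0.00402 and Tpm1 -0.0255; centred on array medians Tpm1 read -0.0049; with array weights Mybpc3 read 0.00319; without wild-type arrays 4 and 5 Myoz2 read 0.007. The cause of these turns was not tested. Among all probe sets 10 passed; the count was 17 with the letter as a block, 27 with letter and prime, 0 within letter e or x (fewer arrays), 3 with the Y-linked covariate, 17 when centred on medians, 37 with array weights, 5 without wild-type arrays 4 and 5, 17 without dim probe sets and 3 to 15 leaving out 1 array. Among the genes of the further sarcomere and splicing lists 0 to 1 passed leaving out 1 array. When centred on medians, with array weights or without dim probe sets 1 passed, the splicing gene Rbfox1. Averaging all probe sets of a gene changed nothing for the scaffold genes, which have 1 each. No paired analysis was possible because the labels give no replicate numbers that pair hearts. Signal over background and saturation were not given in the table.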
